A study of Mus musculus with 2 samples.

Results

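The 8 genes described here, Hmgcs1, Idi1, Fdft1, Sqle, Insig1, Fasn, Scd1 and Scd2, belong to the synthesis of cholesterol and fatty acids. They were chosen by name among the 17408 genes of the table. They and the pathway lists used below were chosen with earlier results of these data known. Droplet single-cell 3′ RNA-seq, which tags every captured transcript with a molecular barcode and counts the barcodes as UMIs, was applied to unsorted mouse cells 16 days into STEMCCA reprogramming, which leads to induced pluripotent stem cells (iPSCs). Reprogramming started from mouse embryonic fibroblasts (MEFs), where STEMCCA is a doxycycline-inducible cassette of the factors Pou5f1, Sox2, Klf4 and Myc. Both libraries had the same label, so there was 1 group, with serum-containing mouse ESC medium, LIF and ascorbic acid in common, and no untreated cells were analysed here. The study describes independent STEMCCA mouse systems for its day-16 cells, but no label ties a library to a system or tells whether the cultures were separate. A difference between the libraries may therefore hold a difference between mouse systems, which cannot be told apart from the library, and p-values measure only the spread between these samples, which may also be technical. Replicate 1 held 3109 cells and 54145377 UMIs, and replicate 2 held 3914 cells and 64654306 UMIs. Levels are the mean over the cells of a cluster of the UMIs of a gene per 10000 UMIs of the cell.

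Cells make cholesterol from acetyl-CoA through the mevalonate pathway, and the enzymes of that pathway are transcribed together under SREBP-2, a transcription factor held in the endoplasmic reticulum while sterols are plentiful. The related factor SREBP-1 acts mainly on fatty acid synthesis. Both are escorted to the Golgi by SCAP and retained by INSIG proteins. Hmgcs1 encodes the cytosolic HMG-CoA synthase at the head of the mevalonate pathway, Idi1 the isomerase of isopentenyl diphosphate, Fdft1 squalene synthase and Sqle squalene epoxidase. Insig1 encodes a sterol-responsive retention protein, Fasn the fatty acid synthase, and Scd1 and Scd2 encode desaturases that introduce a double bond into saturated acyl chains.

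The genes are protein-coding and lie on 6 chromosomes of GRCm38 in the GENCODE M21 annotation. Hmgcs1 lies at chr13:119690379-119708260 and Idi1 at chr13:8885501-8892451, both on the plus strand. Fdft1 lies at chr14:63145150-63179578 on the minus strand, and Sqle lies at chr15:59315077-59331192 on the plus strand. Insig1 lies at chr5:28071363-28078662 on the plus strand, and Fasn lies at chr11:120805846-120824547 on the minus strand. Scd1 at chr19:44394455-44407879 (minus) and Scd2 at chr19:44293674-44306864 (plus) are paralogs in the same region, with Scd4 between them. Reads that match more than 1 paralog could have been lost or split, which was not examined. The levels of Scd1 and Scd2 are uncertain to that degree.

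Promoters are shown because sterol-responsive genes are known for short SREBP and NF-Y motifs near their start sites. RefSeq promoter sequences (GRCm38.p6) were matched for 4 of the 8 genes, namely Hmgcs1, Idi1, Insig1 and Fasn. The motifs searched on both strands were the sterol regulatory element, written TCACNNCAC, the NF-Y motif CCAAT, the E-box CACGTG and the GC box GGGCGG, in windows from 250 bases before to 50 bases after the start. The 3 stretches below run 5′ to 3′ on the strand of the gene, and capitals mark the first 3 of these motifs, CCAAT reading ATTGG where it lies on the other strand.
Hmgcs1 (chr13:119690101-119690350, plus strand): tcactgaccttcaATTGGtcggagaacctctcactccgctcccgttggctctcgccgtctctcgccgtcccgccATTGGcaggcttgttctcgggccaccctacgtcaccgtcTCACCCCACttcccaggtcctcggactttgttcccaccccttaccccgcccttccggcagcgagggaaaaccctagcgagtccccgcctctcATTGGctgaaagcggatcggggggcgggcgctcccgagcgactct
Fasn (chr11:120824548-120824797, minus strand): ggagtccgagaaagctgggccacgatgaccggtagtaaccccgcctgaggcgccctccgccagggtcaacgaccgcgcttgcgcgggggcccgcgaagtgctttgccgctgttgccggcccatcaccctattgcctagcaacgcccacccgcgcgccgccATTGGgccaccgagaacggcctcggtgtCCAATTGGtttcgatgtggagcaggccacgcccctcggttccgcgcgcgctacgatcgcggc
Insig1 (chr5:28071162-28071362, plus strand): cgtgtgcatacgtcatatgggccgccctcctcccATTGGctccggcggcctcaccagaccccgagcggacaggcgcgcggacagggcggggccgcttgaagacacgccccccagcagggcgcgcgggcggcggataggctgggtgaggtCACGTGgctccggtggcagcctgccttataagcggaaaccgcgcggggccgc
The Hmgcs1 stretch holds a sterol regulatory element that begins 137 bases before the start, flanked by 3 copies of CCAAT. The Fasn stretch holds 3 copies of CCAAT, of which a pair overlaps on opposite strands, and the Insig1 stretch holds 1 copy and an E-box. Over all genes with a promoter in the table, 4.37% had a sterol regulatory element, 41.1% had CCAAT, 8.09% had the E-box and 38.2% had the GC box in at least 1 window. Among 15 matched genes of the cholesterol list described below, 4 had a sterol regulatory element (Dhcr7, Hmgcs1, Hsd17b7 and Msmo1), 14 had CCAAT and 14 had the GC box. Of 17 matched genes of the fatty acid synthesis list below, 0 had a sterol regulatory element, 10 had CCAAT and 10 had the GC box. Of 8 matched genes of the sterol sensing and uptake list the counts were 0, 5 and 7. All 4 matched genes of the 8 had CCAAT, 3 (Hmgcs1, Idi1 and Insig1) had the GC box and 1 (Hmgcs1) had a sterol regulatory element. A match of letters is a description, and binding was not measured in these libraries.

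Cell states were found by clustering without the 8 genes, the pathway lists below, the reprogramming factors and the genes on the X and Y chromosomes. There were 20 clusters, numbered from 0 by size, and 16 of them (0 to 15) had at least 30 cells in both libraries. Cluster 5 was pluripotent-like, with 10 of 10 markers raised, and held 146 cells (4.70%) of replicate 1 and 390 cells (9.96%) of replicate 2. Its summed level of the pluripotency markers was 61.4 and 66.3 in replicates 1 and 2, against 0.192 to 0.979 over the other 15 compared clusters. Cluster 10 was fibroblast-like, with 8 of 11 markers raised and 199 and 111 cells, and Spp1, Mmp3 and Col10a1 led it. Clusters 4 and 9 were mitotic-like and clusters 7 and 12 were S phase-like. Of the 14 marker lists, those for epithelial cells and macrophages named the small clusters 16 and 19, and the smooth muscle, endothelial, neural, trophoblast, keratinocyte, senescent, adipocyte and steroidogenic lists named none. The other clusters stayed unnamed, among them cluster 15, a group of 49 and 45 cells led by the matrix genes Cthrc1, Thbs4 and Cilp. In cluster 15, 6 of 11 fibroblast markers were raised, and it stayed unnamed because its leading genes held none of them and 1 marker of another list, but at a Leiden resolution of 2 the cluster led by the same 3 matrix genes was fibroblast-like. The fibroblast markers summed to 107 and 73.6 in cluster 10, 120 and 100 in cluster 15 and 78.4 and 62.7 in cluster 3, so the fibroblast-like cluster was not the only one with high fibroblast markers. The libraries shared 12 cell barcodes, and the doublet caller marked 5 and 2 cells, too few to be taken as working, so no cell was removed.

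The levels of the tested members differed between cell states, as did those of most genes. In a limma fit of log2(level + 0.1) with a term for each cluster and for the library, 7 of the 8 genes passed the filter on low values, which asked for 0.1 or more as the level over all cells. All 7 varied over the 16 clusters at an adjusted p under 0.05 (moderated F test, Benjamini-Hochberg). The background was high, since 91.7% of the 7131 genes tested passed the same test, so the count is no result about these members. The adjusted p ranged from 1.3e-09 for Scd2 to 0.0069 for Insig1. Idi1, at a mean of 0.0678, was below the filter and was not tested.

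**Figure D1:**
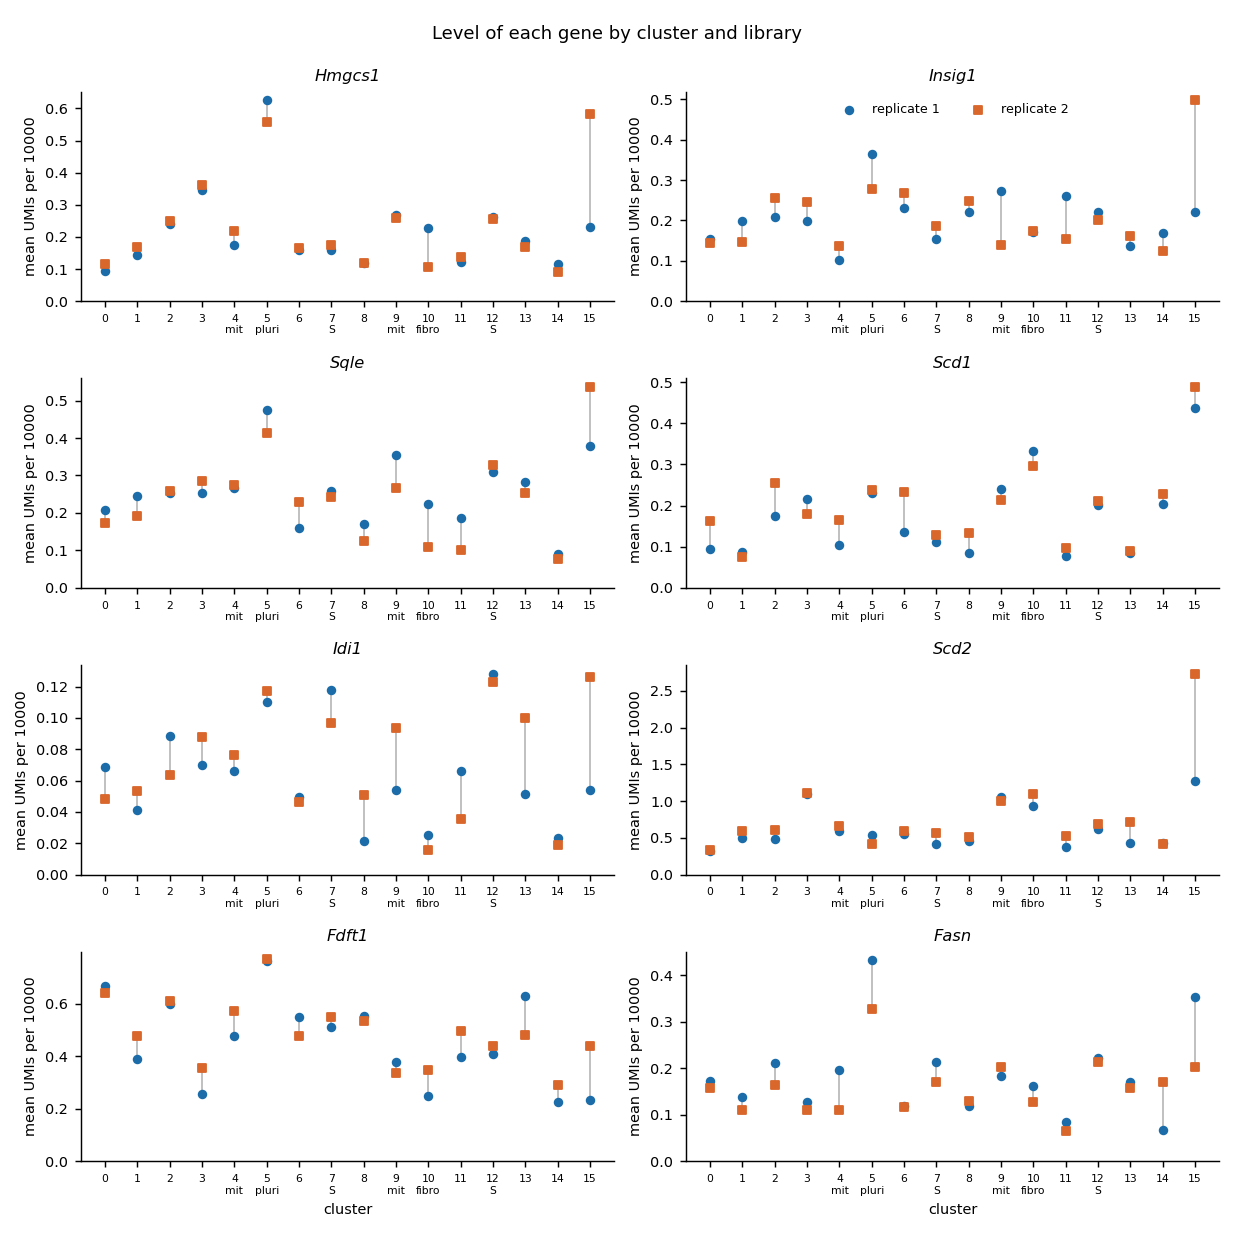
Level of each gene (mean UMIs per 10000 of a cell, vertical axis from 0) in the 16 clusters with at least 30 cells in both libraries (horizontal axis). Circles are replicate 1, squares replicate 2, and a grey line joins them. Hmgcs1, Fdft1 and Fasn were highest by mean in the pluripotent-like cluster 5, whereas Sqle, Insig1, Scd1 and Scd2 were highest in the unnamed cluster 15. Sqle and Insig1 were highest there in replicate 2 but not in replicate 1.

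The first comparison asked how the cells closest to the end point of reprogramming differed from the rest of the dish, by setting the pluripotent-like cluster against the unweighted mean of the other 15 clusters. Of the 7 genes tested, 6 were higher and 1, Scd2, was lower per 10000 UMIs in the pluripotent-like cluster, and Scd2 came out higher when UMIs were not divided by the depth of the cell. The background was 32.0% of the 7131 genes higher and 44.1% lower, and the median log2 fold over all genes was −0.13. The median over the 7 genes was 0.69.

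Hmgcs1 had the largest difference among the 8. Its level in the pluripotent-like cluster was 0.625 in replicate 1 (264 UMIs) and 0.557 in replicate 2 (557 UMIs), against 0.190 and 0.211 for the other clusters. The log2 fold was 1.26 (SE 0.15, limma adjusted p = 3.6e-08), and it was positive in both libraries (1.36 and 1.16). For Fdft1, which commits farnesyl diphosphate to sterols, the levels were 0.764 and 0.770 against 0.435 and 0.470. In the pluripotent-like cluster its libraries lay closer together than those of the other members, and the log2 fold was 0.69 (SE 0.12, limma adjusted p = 1.0e-05). Sqle, a rate-limiting enzyme of the later steps, was at 0.475 and 0.413 against 0.243 and 0.230, with a log2 fold of 0.75 (SE 0.13, limma adjusted p = 1.5e-05). Idi1 was at 0.110 and 0.117 against 0.0617 and 0.0690, so the pluripotent-like level was the higher in both libraries. It was not tested in the fit described, and in a fit of all 17408 genes without the filter its log2 fold of 0.39 had a limma adjusted p of 0.012.

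Insig1, which acts as the brake of the system, stood at 0.365 and 0.278 against 0.195 and 0.206. The log2 fold was 0.52 (SE 0.16, limma adjusted p = 0.0057), with 0.68 in replicate 1 and 0.36 in replicate 2. Fasn was at 0.432 and 0.327 against 0.170 and 0.147, and its log2 fold of 0.92 (SE 0.14, limma adjusted p = 1.2e-06) was second to that of Hmgcs1 among the 8.

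The desaturases did not follow each other. Scd1 stood at 0.230 and 0.238 in the pluripotent-like cluster against 0.172 and 0.197, a log2 fold of 0.31 (SE 0.12, limma adjusted p = 0.020). Scd2 stood at 0.535 and 0.421 against 0.637 and 0.810, a log2 fold of −0.38 (SE 0.14, limma adjusted p = 0.015), which was −0.12 in replicate 1 and −0.64 in replicate 2. On UMIs per cell, Scd2 was higher in the pluripotent-like cluster by a log2 fold of 0.34 (limma adjusted p = 0.031), below the median over all genes of 0.54 on that scale, whereas the other 6 tested genes were above that median. The cells differed in depth, with median UMIs of 28768 and 26127 per pluripotent-like cell against 15625 and 14292 over all cells of the libraries.

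**Figure D2:**
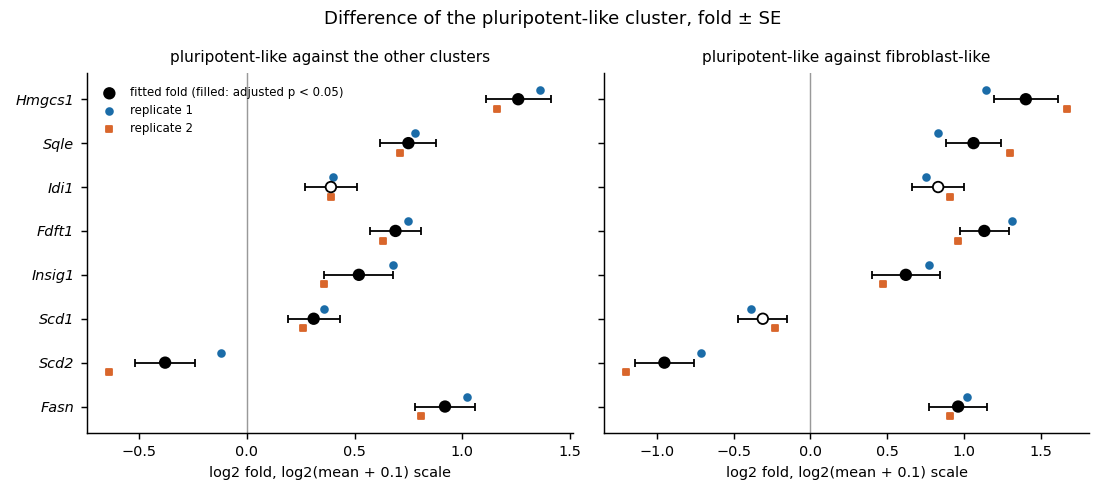
Log2 fold of the pluripotent-like cluster for the 8 genes on the log2(level + 0.1) scale (horizontal axis), against the other 15 clusters on the left and the fibroblast-like cluster on the right. Large circles are fitted folds with their SE, filled where the adjusted p was under 0.05, and the small points are the separate libraries. Scd2 was below 0 on both sides and Scd1 on the right only, and on UMIs per cell Scd2 on the left (0.34) and Scd1 on the right (0.51) were above 0.

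Pluripotent-like cells also carried cell-cycle transcripts. The summed level of 7 mitotic markers was 11.2 and 10.9 in that cluster against 1.10 and 0.537 in the fibroblast-like cluster, and that of 7 S phase markers was 7.97 and 7.57 against 1.16 and 0.854. Over clusters 4, 7, 9 and 12 the mitotic sums ranged from 8.90 to 25.3 and the S phase sums from 3.07 to 8.64. The pluripotent-like cluster was also compared with these 4 mitotic-like and S phase-like clusters alone, a comparison added after the data were seen. In it 25.3% of all genes were higher and 43.6% lower. There the log2 fold was 1.11 for Hmgcs1, 0.73 for Fasn, 0.65 for Fdft1, 0.63 for Insig1, 0.49 for Sqle, 0.32 for Scd1 and −0.43 for Scd2. All 7 passed the limma threshold in the same direction as before, with adjusted p between 1.5e-06 for Hmgcs1 and 0.028 for Scd1.

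The second comparison set the pluripotent-like against the fibroblast-like cluster 10, a day-16 state that need not resemble the starting MEFs. Of the 7 genes tested, 5 were higher (Hmgcs1, Fdft1, Sqle, Fasn and Insig1) and 1 was lower (Scd2), beside a background of 30.8% of genes higher and 42.9% lower. Both comparisons share the pluripotent-like profiles, so they are not independent.

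In the fibroblast-like cluster Hmgcs1 stood at 0.229 in replicate 1 and 0.107 in replicate 2, and the log2 fold was 1.40 (SE 0.21, limma adjusted p = 1.3e-06). Fdft1 stood at 0.249 and 0.347 there, with a log2 fold of 1.13 (SE 0.16, limma adjusted p = 7.4e-07). Sqle was at 0.223 and 0.109, a log2 fold of 1.06 (SE 0.18, limma adjusted p = 9.0e-06). Every one of these fibroblast-like levels lay below both pluripotent-like levels of its gene. For Fasn, at 0.163 and 0.128, the log2 fold was 0.96 (SE 0.19, limma adjusted p = 5.7e-05). For Insig1, at 0.172 and 0.173, it was 0.62 (SE 0.22, limma adjusted p = 0.014), which fell to 0.37 (limma adjusted p = 0.078) when cells were clustered more coarsely, at a Leiden resolution of 0.5. Idi1, not tested, was lower in the fibroblast-like cluster than in any other compared cluster by mean, at 0.0250 (7 UMIs) and 0.0155 (3 UMIs). Its range overlapped with that of cluster 14 (0.0233 and 0.0188), so the order at this end is not separable.

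Per 10000 UMIs, but not on UMIs per cell, the desaturases lay on the fibroblast side. Scd2 stood at 0.940 and 1.10 in the fibroblast-like cluster, above both pluripotent-like levels, with a log2 fold of −0.95 (SE 0.19, limma adjusted p = 5.4e-05), which came to −0.03 (limma adjusted p = 0.91) on UMIs per cell. Scd1 stood at 0.332 and 0.296 there, above both pluripotent-like levels. Its log2 fold of −0.31 (SE 0.16) missed the threshold (limma adjusted p = 0.085), and on UMIs per cell it was 0.51 (limma adjusted p = 0.022). Fabp4, a lipid carrier of adipocytes and other cells, was 1.49 and 2.05 in the fibroblast-like cluster against 0.00385 and 0.00152 in the pluripotent-like cluster, while Adipoq, Cidec and Lep were not in the table and Plin1 was at 0 in both clusters. The other adipocyte markers were below the filter and not tested. Pparg, the adipogenic nuclear receptor, was at 0.0129 and 0.0192 in the fibroblast-like against 0.00149 and 4.20e-04 in the pluripotent-like cluster, Cebpa was at 0.127 and 0.110 against 0.00977 and 0.00856, and Retn was at 0.00758 and 0 against 0.0520 and 0.0681. The part of such cells in the desaturase levels was not tested.

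Over the 16 clusters, the order of the levels differed from gene to gene. By mean it did not divide sterol genes from desaturases, since Sqle and Insig1 were also highest in cluster 15. For both genes the ranges of cluster 15 and the pluripotent-like cluster overlapped. In replicate 1 cluster 15 ranked 2 for Sqle (0.378) and 6 for Insig1 (0.221), so this order rests on replicate 2. Fdft1 and Fasn were highest in the pluripotent-like cluster in each library. For Hmgcs1 and Sqle the pluripotent-like cluster was first in replicate 1 and second, after cluster 15, in replicate 2, and the same held for Insig1. Scd1 and Scd2 were highest in cluster 15 in each library. For Scd1 the level there was 0.437 and 0.488, and the fibroblast-like cluster came second. For Scd2 it was 1.27 and 2.73, and second came cluster 3, at 1.10 and 1.11, an unnamed cluster led by Mylk, Prss23 and Col8a1 in which 7 of 7 smooth muscle and 9 of 11 fibroblast markers were raised. Idi1 was highest by mean in the S phase-like cluster 12, at 0.128 and 0.123, with the pluripotent-like cluster second.

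At the low end, cluster 14, led by the interferon-response genes Isg15 and Irf7, was lowest by mean for Hmgcs1 (0.116 and 0.0908), Sqle (0.0895 and 0.0775) and Fdft1 (0.226 and 0.290). Insig1 was lowest in the mitotic-like cluster 4 (0.101 and 0.136). Fasn was lowest in cluster 11 (0.0848 and 0.0642), Scd1 in cluster 1 (0.0867 and 0.0755) and Scd2 in cluster 0 (0.322 and 0.341). Neighbours in each order were often not separable. The ranges of the libraries overlapped for 9 of 15 neighbouring pairs for Hmgcs1, the fewest, and for 14 of 15 pairs for Idi1, Insig1 and Fasn. For Fdft1 the pluripotent-like cluster stood apart from the next, cluster 0 at 0.667 and 0.640. For Hmgcs1 and Fasn it overlapped with cluster 15.

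Pearson correlations over the 16 clusters, computed in each library, describe which genes varied together. They were 0.76 and 0.91 between Hmgcs1 and Sqle and 0.81 and 0.58 between Scd1 and Scd2. By contrast, Fdft1 ran against Scd2 (−0.62 and −0.43), and Fasn and Scd2 were weakly related (0.31 and 0.05). Hmgcs1 and Fdft1, enzymes of the same pathway, were also weakly related (0.06 and 0.23). Over the 15 clusters without the pluripotent-like one, the values of this pair were −0.37 and −0.05. Between Hmgcs1 and Scd2 the correlation was 0.52 and 0.53, and it was 0.80 in each library over the 15 clusters without the pluripotent-like one. Clusters of a library share its preparation and cells, so these values carry no test.

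The genes most like each member over the clusters, ranked by the lower of the correlations of the libraries, were sterol or lipid genes for some members only. For Hmgcs1 they included Acly (0.85) and Msmo1 (0.85), of the acetyl-CoA and sterol steps. For Insig1 they were Fdps (0.66), Ubald1 (0.64) and Nsdhl (0.63). For Sqle they were Cyb5b (0.83), Phrf1 (0.83) and Acat2 (0.81), and for Idi1 Nop9 (0.76), Cops3 (0.74) and Acat2 (0.74). Fdft1 was closest to Slc7a3 (0.85), Tfcp2l1 (0.84), a transcription factor of naive pluripotency, and Farsb (0.83). Fasn was closest to Rpl36al (0.89), Srm (0.85), the spermidine synthase, and Zmynd19 (0.83). Scd1 was closest to Manf (0.81), Usp5 (0.81) and Cox6a1 (0.78), whereas the genes closest to Scd2 included Crk (0.89) and the endoplasmic reticulum chaperone Hspa5 (0.86).

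Most tested genes of the cholesterol synthesis list were higher in the pluripotent-like cluster. The list holds Hmgcs1, Sqle and Fdft1, so its counts and median are not separate from the values of these members. Of 20 listed genes, 14 passed the filter, of which 12 were higher, 1 (Ebp) was lower and 1 (Mvk, mevalonate kinase) did not pass against the other clusters, and on UMIs per cell 13 were higher and Ebp did not pass. On UMIs per cell 59.8% of all genes were higher and 23.9% lower, beside 32.0% and 44.1% per 10000. The median log2 fold was 0.77, against −0.13 over all genes. The largest rises were in Fdps (1.40, limma adjusted p = 4.4e-08), the farnesyl diphosphate synthase, Hmgcs1, and Acat2 (1.10, limma adjusted p = 1.6e-08), which makes acetoacetyl-CoA. Fdps stood at 1.11 and 1.10 against 0.335 and 0.442. Ebp, a sterol isomerase, was at 0.411 and 0.393 against 0.699 and 0.680, a log2 fold of −0.60 (limma adjusted p = 2.6e-04) that turned to 0.18 (limma adjusted p = 0.25) on UMIs per cell. Ebp and Nsdhl lie on the X chromosome. Against the fibroblast-like cluster, 12 of the 14 were higher and the other 2, Mvk and Ebp, did not pass, beside 30.8% of all genes higher and 42.9% lower. On UMIs per cell all 14 were higher, beside 56.2% of all genes higher and 23.1% lower on that scale.

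**Figure D3:**
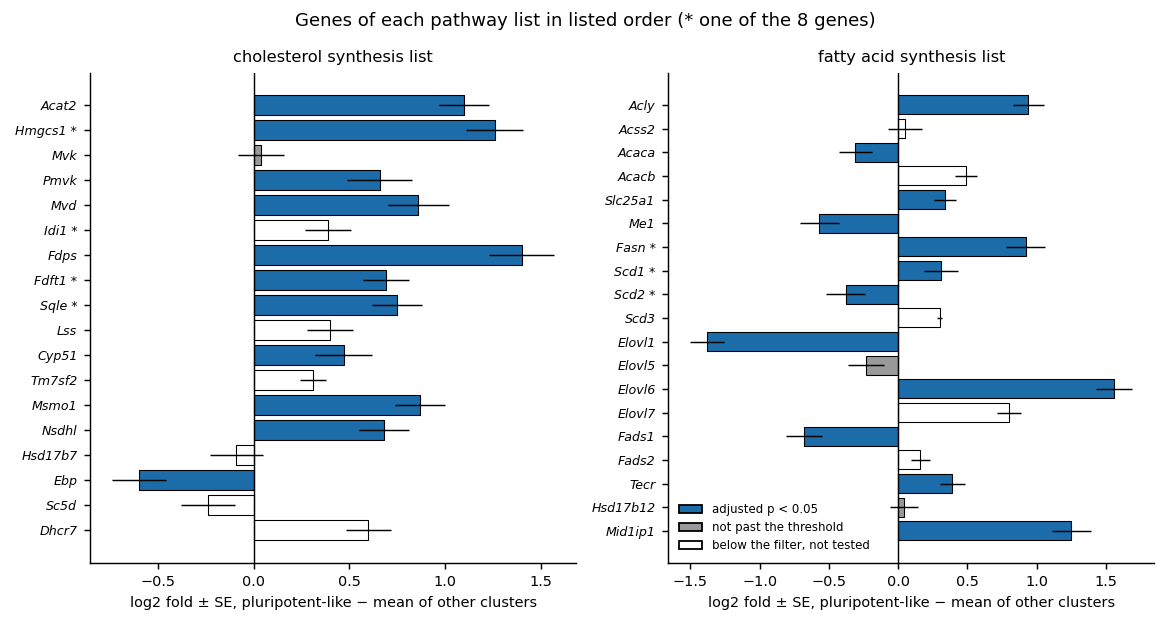
Log2 fold of the pluripotent-like cluster against the other 15 clusters, with SE, for genes of the cholesterol list (left) and the fatty acid list (right) in listed order, on the log2(level + 0.1) scale. Blue bars passed an adjusted p of 0.05, grey bars did not, and white bars were below the filter and not tested. Among the blue bars on the left Ebp was the one below 0, and on the right 7 were above and 5 below, of which Ebp on the left and Acaca, Me1 and Scd2 on the right were above 0 on UMIs per cell.

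The fatty acid synthesis list, which holds Fasn, Scd1 and Scd2, went both ways per 10000 UMIs. Of 14 genes tested, 7 were higher and 5 lower, with 2 that did not pass, and on UMIs per cell 10 were higher and 1 lower, with Acaca, Me1, Scd2 and Elovl5 turning from below to above 0. Over all genes 32.0% were higher and 44.1% lower per 10000, and 59.8% and 23.9% on UMIs per cell, so going both ways is no trait of this list. The largest rises per 10000 were in Elovl6 (1.56, limma adjusted p = 3.9e-11), which extends long-chain acids, Mid1ip1 (1.25, limma adjusted p = 4.6e-09), an activator of acetyl-CoA carboxylase, and Acly (0.94, limma adjusted p = 1.3e-08), which supplies cytosolic acetyl-CoA. The largest falls were in the elongase Elovl1 (−1.38, limma adjusted p = 5.8e-11), the desaturase Fads1 (−0.68, limma adjusted p = 2.4e-05) and the malic enzyme Me1 (−0.57, limma adjusted p = 5.3e-04). On UMIs per cell Elovl1 stayed lower (−0.96, limma adjusted p = 5.8e-08). Fads1 (−0.01, limma adjusted p = 0.95) and Me1 (0.02, limma adjusted p = 0.90) did not pass on that scale. Elovl6 stood at 0.611 and 0.786 against 0.170 and 0.184, and Elovl1 stood at 0.0842 and 0.123 against 0.448 and 0.424. Against the fibroblast-like cluster, 6 of the 14 were higher and 5 lower, beside 30.8% and 42.9% of all genes. On UMIs per cell these became 8 and 2, beside 56.2% and 23.1% of all genes, so these counts are no result about the list.

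In the sensing machinery the shares were close to those over all genes, 32.0% higher and 44.1% lower per 10000 and 59.8% and 23.9% on UMIs per cell, so the counts are no result about this list. Of 9 genes tested, 3 were higher, among them Insig1 and the protease gene Mbtps2, and 4 were lower (Insig2, Mylip, Scap and Mbtps1), which became 5 and 2 on UMIs per cell, with Mbtps1 changing sign. Srebf2, which encodes SREBP-2, was at 0.259 and 0.221 against 0.218 and 0.205, and its log2 fold of 0.15 did not pass (limma adjusted p = 0.23). On UMIs per cell the log2 fold of Srebf2 was 0.90 (limma adjusted p = 3.9e-07), where the median over all genes was 0.54. Srebf1 was below the filter, at 0.0392 and 0.0356 against 0.0539 and 0.0564. The paralogs of INSIG differed in direction, since Insig2 was at 0.114 and 0.122 against 0.294 and 0.303, a log2 fold of −0.83 (limma adjusted p = 2.3e-07). Scap was at 0.0603 and 0.0404 against 0.126 and 0.124 (−0.56, limma adjusted p = 7.8e-04), and the ubiquitin ligase gene Mylip had a log2 fold of −0.74 (limma adjusted p = 5.5e-06). On UMIs per cell Scap did not pass (−0.21, limma adjusted p = 0.20). Insig2 (−0.38, limma adjusted p = 0.0064) and Mylip (−0.67, limma adjusted p = 2.3e-04) stayed lower on that scale. Against the fibroblast-like cluster 1 of the 9 was higher (Insig1) and 4 were lower (Insig2, Mylip, Scap and Mbtps1), beside 30.8% and 42.9% of all genes. On UMIs per cell these became 5 and 2, beside 56.2% and 23.1% of all genes.

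Genes of sterol efflux and storage and of fatty acid oxidation are counted beside 44.1% of all genes lower and 32.0% higher per 10000, and 23.9% lower and 59.8% higher on UMIs per cell. Of 6 efflux and storage genes, 1 was higher, Apoe, and 4 were lower, which became 3 and 2 on UMIs per cell, where Npc2 turned above 0. Apoe, a lipoprotein component that is also among the leading genes of the cluster, stood at 12.5 and 11.8 against 0.491 in each library (4.60, limma adjusted p = 2.2e-22). The falls were led by the cholesterol exporter Abca1 (−1.30, limma adjusted p = 6.3e-09), the lysosomal lipase Lipa (−0.88, limma adjusted p = 1.6e-07) and Soat1 (−0.61, limma adjusted p = 2.5e-04), which esterifies cholesterol. On UMIs per cell Abca1 and Lipa stayed lower, and Soat1 did not pass (−0.13, limma adjusted p = 0.36). Of 10 oxidation genes, 8 were lower and 2 higher, which became 5 and 4 on UMIs per cell, with Hadha, Hadhb and Etfa changing sign. The falls were led by the acyl-CoA dehydrogenases Acadl (−1.64, limma adjusted p = 1.2e-12) and Acadvl (−1.26, limma adjusted p = 3.1e-12) and by Acaa2 (−0.98, limma adjusted p = 6.8e-07), and the rises were in Acadm (0.65, limma adjusted p = 3.9e-06) and Etfb (0.57, limma adjusted p = 1.3e-07). Against the fibroblast-like cluster, 1 of 6 efflux and storage genes was higher and 4 lower, and 2 of 10 oxidation genes were higher and 7 lower. Over all genes 30.8% were higher and 42.9% lower there. On UMIs per cell these counts became 2 and 3 for efflux and storage and 3 and 3 for oxidation, beside 56.2% of all genes higher and 23.1% lower. The adipocyte and steroidogenic lists had 1 tested gene each, Fabp4 (−1.16, limma adjusted p = 0.0014) and Cyp11a1 (−0.84, limma adjusted p = 1.3e-04), both lower.

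The libraries were compared within clusters by the log2 ratio of replicate 2 over replicate 1, with no test. Over all cells the ratio of the 8 genes lay between −0.11 for Fasn and 0.20 for Fdft1, and in the pluripotent-like cluster between −0.32 for Fasn and 0.04 for Idi1. Cluster 15 stood apart. There Hmgcs1 rested on 16 UMIs in replicate 1 and 40 in replicate 2, at levels of 0.231 and 0.582, a log2 ratio of 1.04. Scd2 rested on 98 and 181 UMIs, a log2 ratio of 1.05. These were the only cases among the 8 genes and 16 clusters in which the libraries were at least 2-fold apart on this scale. Insig1 (0.90), Fdft1 (0.69), Idi1 (0.55), Sqle (0.41) and Scd1 (0.13) were also higher in replicate 2 there, and Fasn was lower (−0.58).

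**Figure D4:**
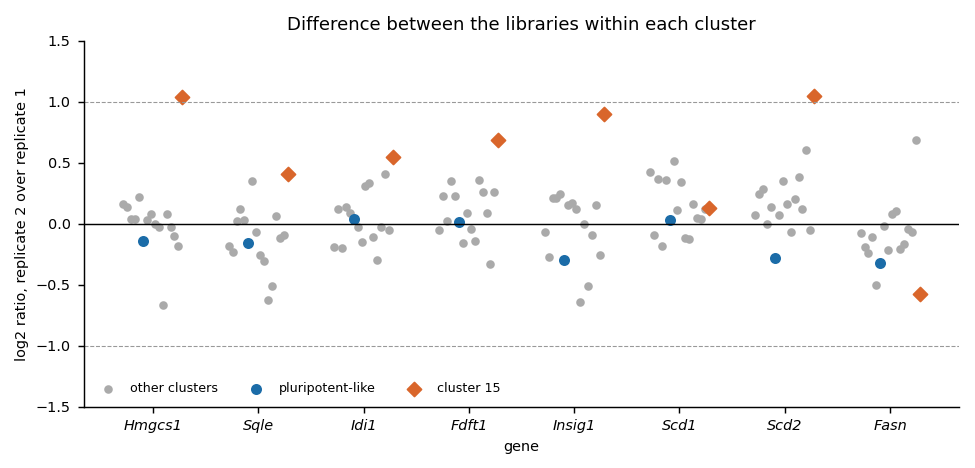
Log2 ratio of replicate 2 over replicate 1 (vertical axis, on the log2(level + 0.1) scale) for each of the 8 genes (horizontal axis) in each of the 16 compared clusters. Diamonds are cluster 15, blue circles the pluripotent-like cluster and grey circles the rest, and dashed lines mark a 2-fold difference. The diamonds of Hmgcs1 (1.04) and Scd2 (1.05) lie beyond the upper dashed line.

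The difference in cluster 15 remained when 1 cell was left out of each library, and whether a few cells carry it was not tested. Without the cell of the highest level in each library, Hmgcs1 was at 0.200 and 0.496 and Scd2 at 1.12 and 2.56. In the cholesterol list 12 of the 14 tested genes were higher in replicate 2 there, with a median log2 ratio of 0.60, beside 45.5% of all tested genes and a median of −0.04. That list holds Hmgcs1, Fdft1 and Sqle, whose ratios are given above, so its count is not separate from them. In the fatty acid synthesis list, which holds Scd1, Scd2 and Fasn, 8 of 14 were higher, with a median of 0.03. The counts were 8 of 9 for sensing and uptake, which holds Insig1 (median 0.27), 3 of 6 for efflux and storage (0.00) and 6 of 10 for oxidation (0.19). Fabp4 was at 0.107 in replicate 1 and 0.841 in replicate 2 of this cluster, and the summed level of the 5 adipocyte markers in the table was 0.168 and 0.986. Median depth in cluster 15 was 13449 and 13242 UMIs per cell. The part of adipocyte-related transcripts in the difference was not tested, and with 1 library on each side the difference cannot be told apart from the library or its mouse system.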

How the data were processed

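Per the paper's methods, the authors obtained counts with Cell Ranger (version 2.1.1) on mm10 and kept cells within limits on detected genes and mitochondrial RNA in Seurat, which left cells with 1508 to 5987 genes. The deposited values are natural log values, ln(1 + UMIs per 10000 UMIs of the cell), and on a linear scale 100% of them were whole multiples of the cell's smallest value within 0.01, so UMIs could be recovered. Cells had 4753 to 60990 UMIs. This was checked on the 17408 genes and 7023 cells, and each cell summed to 10000.

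The members and the lists were chosen with earlier results of these data known. Clustering left out 675 genes (599 on the X and Y chromosomes and 76 other genes, the reprogramming factors and the lists), and used 2000 variable genes, 30 components, 15 neighbours and Leiden resolution 1 (scanpy version 1.11.5, leidenalg version 0.10.2). A cluster was named when at least 3 markers and 50% of a list were raised 2-fold, from 14 lists of 107 markers, of which 10 were not in the table, unless its 10 leading genes went against the name. This scoring rule was set with the clusters known. One profile per cluster and library, the mean level, entered limma (version 3.58.1, R version 4.3.3) as log2(mean + 0.1) with terms for cluster and library, a trended prior and Benjamini-Hochberg adjustment over 7131 genes with a mean of at least 0.1, at a threshold of 0.05. The 32 profiles gave 26.5 degrees of freedom with those shared among genes. Folds on this scale understate changes of low genes. The fit was tested on simulated data first. Clusters of a library are not independent samples, and p-values rest on the agreement of 2 libraries.

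Named genes were the 8 members, the 3 largest rises and falls past the threshold in each list, the regulators Srebf1, Srebf2, Scap and Insig2, and the 3 genes most like each member, and some genes that the rule names are not reported here. Intervals are exact Poisson intervals (95%) and cover counting error only. Alternatives changed the pseudocount, filter, resolution, variable genes, clustering genes, scale, library term, prior, depth and compared clusters.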

Additional observations from a re-analysis of the deposited data

Results flagged for a closer look

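Scd1 in cluster 18 of replicate 1 stood at 1.15 per 10000 UMIs (18 UMIs in 16 cells, pooled level 1.09, exact Poisson 95% interval 0.645 to 1.72). It was singled out because this cluster was too small for the comparisons and the interval lay above the highest level of the compared clusters in that library, 0.437. The cluster was led by Gap43 and Sox10 and stayed unnamed, and Scd2 stood at 1.58 there. Replicate 2 had 1 cell in this cluster, so the difference has no replicate check.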

How the results depend on the processing

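All alternatives listed were run. With a stricter filter, a mean of at least 0.5, 2 of the 8 genes could be tested and 2 passed in each of the comparisons with the other clusters, with the fibroblast-like cluster and over all clusters, because fewer genes were tested. Without replicate 2, 5 genes rather than 3 were highest in the pluripotent-like cluster, and without replicate 1 there were 2. On UMIs per cell the log2 fold of Scd2 against the other clusters reversed to 0.34 and that of Scd1 against the fibroblast-like cluster to 0.51, where the median over all genes moved from −0.13 to 0.54 and from −0.18 to 0.58. Scd2 against the other clusters missed the threshold with the mean of the deposited log values (−0.13, limma adjusted p = 0.096) and relative to the median of all genes (−0.25, limma adjusted p = 0.10), and the cause was not tested. Scd1 against the fibroblast-like cluster passed with a pseudocount of 1 (limma adjusted p = 0.034) and at Leiden resolutions of 0.5 (0.0074) and 2 (0.027). At these resolutions the fibroblast-like group was not cluster 10 alone. At 0.5 Cthrc1 was among its leading genes, and at 2 it included the cluster led by Cthrc1, Thbs4 and Cilp. Over the alternatives the limma adjusted p ranged from 1.6e-04 to 0.10 for Scd2 against the other clusters and, against the fibroblast-like cluster, from 1.6e-11 to 0.91 for Scd2, from 0.0074 to 0.47 for Scd1 and from 6.4e-07 to 0.078 for Insig1. Hmgcs1, Fdft1, Sqle and Fasn kept their direction and their call in both comparisons under every alternative in which they were tested, also without the deepest 5 percent of cells. The fit compared clusters within libraries through its library term, and without that term (no replicate block) 7, 6 and 7 of the 7 genes passed against the other clusters, against the fibroblast-like cluster and over all clusters, with no call changed. Levels of Idi1 and of clusters with few cells are limited by depth.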
